A study of Mus musculus with 10 samples.

Results

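The Stat5b, Stat5a and Stat3 locus of the mouse was described by its STAT5 peaks in mammary glands taken at parturition. These peaks are the places where chromatin immunoprecipitation followed by sequencing (ChIP-seq) found STAT5A or STAT5B on the DNA. Members were all peaks of 3 deposited lists that overlapped chromosome 11 from 100620000 to 100820000 (mm9 build), a window of 200 kb meant to reach 20 kb beyond Stat5b on one side and 20 kb beyond Stat3 on the other. They numbered 12 of 35791 peaks: 10 of 26237 STAT5A peaks in wild type tissue, 1 of 6976 STAT5B peaks in wild type tissue and 1 of 2578 STAT5B peaks in Stat5a-null tissue. Wild type mice (AABB in the titles) carry both Stat5 genes, and Stat5a-null mice (BB) retain Stat5b without Stat5a. The strain of both groups is labelled 129SV::FVB/N::C57BL/6. Each group was 1 library of whole mammary tissue, the labels do not say how many animals went into it, and the other 7 of the 10 samples (among them STAT5A in Stat5a-null tissue and the input libraries) were not analysed here. Differences between groups therefore lack a replicate check, and p-values are not given.

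STAT5A and STAT5B are transcription factors of very similar sequence. In the mammary epithelium prolactin binds its receptor, the kinase JAK2 phosphorylates STAT5, and the STAT5 dimer enters the nucleus and binds DNA at TTCNNNGAA elements, a step needed for alveolar development and milk protein genes. STAT3, encoded beside them, is the family member known for starting involution, the regression of the gland after weaning. STAT5 proteins are also known to act on their own gene locus in this tissue through an autoregulatory enhancer. Whether a peak described here lies at that element was not examined.

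RefSeq (GRCm38.p6) lists the genes in the order Kcnh4, Hcrt, Ghdc, Stat5b, Stat5a, Stat3, Gm46295 and Cavin1, so no other gene is listed between the 3 members. Their mm9 positions were not at hand and positions were not moved between builds. Peaks are therefore placed within the window and not assigned to a gene, exon or intron, and the bounds of the window are those of the rule as given. Stat5a, the gene made null in Stat5a-null mice, lies in this window, and how the null allele changed its DNA is not given in the sources used here. A missing Stat5a-null peak over altered DNA could not be told apart from missing binding. The 1 wild type STAT5B peak of the window had a Stat5a-null partner, as did 34.8% of the wild type STAT5B list. The STAT5A peaks without a Stat5a-null STAT5B peak had no STAT5B peak in wild type tissue either. Whether altered DNA affected these calls was not tested.

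One pair of Stat5b and Stat5a promoters was alike over a longer stretch. The stretches below are the 250 bases before a RefSeq start site (GRCm38.p6), and they are shown because the start farther along Stat5b and the start farther along Stat5a, in the direction of transcription, share a stretch of sequence that the Stat3 promoter does not hold at that length. Capitals mark the stretch that aligned between Stat5b and Stat5a.
Stat5b: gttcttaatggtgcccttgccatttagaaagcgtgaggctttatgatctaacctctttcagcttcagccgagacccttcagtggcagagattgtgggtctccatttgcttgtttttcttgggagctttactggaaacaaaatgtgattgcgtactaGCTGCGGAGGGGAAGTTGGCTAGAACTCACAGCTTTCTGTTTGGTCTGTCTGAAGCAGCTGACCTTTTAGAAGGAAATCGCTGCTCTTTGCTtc
Stat5a: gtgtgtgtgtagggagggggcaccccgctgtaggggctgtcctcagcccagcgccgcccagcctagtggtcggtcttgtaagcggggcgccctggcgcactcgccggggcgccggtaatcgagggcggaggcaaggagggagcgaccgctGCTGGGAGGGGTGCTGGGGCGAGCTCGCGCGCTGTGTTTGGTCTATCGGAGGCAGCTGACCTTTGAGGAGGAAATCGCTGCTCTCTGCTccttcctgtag
Stat3: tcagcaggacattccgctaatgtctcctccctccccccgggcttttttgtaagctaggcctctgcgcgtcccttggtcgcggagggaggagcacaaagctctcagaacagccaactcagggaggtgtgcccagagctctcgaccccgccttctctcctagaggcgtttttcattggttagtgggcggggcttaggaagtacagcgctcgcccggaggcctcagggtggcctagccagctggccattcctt
In the best local alignment, 73 of 92 alignment columns were identical between Stat5b and Stat5a, or 79.3%. The other 3 pairs of a Stat5b with a Stat5a window aligned over 21 to 24 columns, no longer than the longest alignment of Stat3 with a STAT5 window, which had 32 columns with 23 identical.

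The STAT motif was searched in the RefSeq windows of 300 bases (250 before and 50 after each start) as TTCNNNGAA, with 3 bases between TTC and GAA, and in the form with 4 bases between them. Each reads alike on both strands. None of the 5 windows of the 3 genes (2 for Stat5b, 2 for Stat5a and 1 for Stat3) held either motif. Among all 32851 windows 14.6% held at least 1 of them, 8.30% the first and 6.95% the second, so most promoters lack them. The windows differed in base composition: the first Stat5b window was 82.7% G or C, above 99.6% of all windows, while the second was 47.3%. The 2 Stat5a windows were 57.7% and 67.7% G or C, and the Stat3 window 60.7%, against a median of 52.7% over all windows. The peak sequences themselves could not be searched, since no mm9 genome was used here.

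A single site of the locus was called in all 3 lists. The STAT5A peak lay on chromosome 11 from 100717323 to 100717598, the wild type STAT5B peak from 100717319 to 100717570 and the Stat5a-null STAT5B peak from 100717296 to 100717553. Together they cover 303 bp, of which 231 bp, from 100717323 to 100717553, belong to all 3 peaks. Its centre was 97.5 kb from the start of the window and 102.5 kb from its end, near the middle of the locus. The centres of the STAT5A and wild type STAT5B peaks were 16 bp apart, the same as the median over the 2402 sites called in all 3 lists (quartiles 8 bp and 27 bp). The wild type and Stat5a-null STAT5B centres were 20 bp apart (median 19 bp, quartiles 9 bp and 36 bp). The STAT5A and Stat5a-null centres were 36 bp apart, beyond the upper quartile of 33 bp.

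The shared site was among the higher peaks of the STAT5A list and stood nearer to the middle of the Stat5a-null list. Scores are the authors' own value per peak, of unstated scale, and are compared only within a list. The STAT5A peak had a score of 97.2, which ranked 1832 of 26237 (the top 6.98%) and was 3.59 times the list median of 27.1. The wild type STAT5B peak had a score of 26.3, which ranked 1426 of 6976 (the top 20.4%) and was 1.49 times the median of 17.7. The Stat5a-null STAT5B peak had a score of 19.2, which ranked 941 of 2578 (the top 36.5%) and was 1.15 times the median of 16.7. The lists differ in length, so these ranks show no change between them.

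Ranks among the 2402 sites common to the 3 lists are taken over the same sites each time. There the shared site ranked 1406 by STAT5A score, 1146 by wild type STAT5B score and 915 by Stat5a-null STAT5B score. It was thus an ordinary member of the class: 41.3% of these sites scored lower for STAT5A, 51.2% for STAT5B in wild type tissue and 61.2% for STAT5B in Stat5a-null tissue. On chromosome 11 it ranked 112 of 1701 STAT5A peaks, 85 of 421 wild type STAT5B peaks and 71 of 172 Stat5a-null STAT5B peaks.

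**Figure D1:**
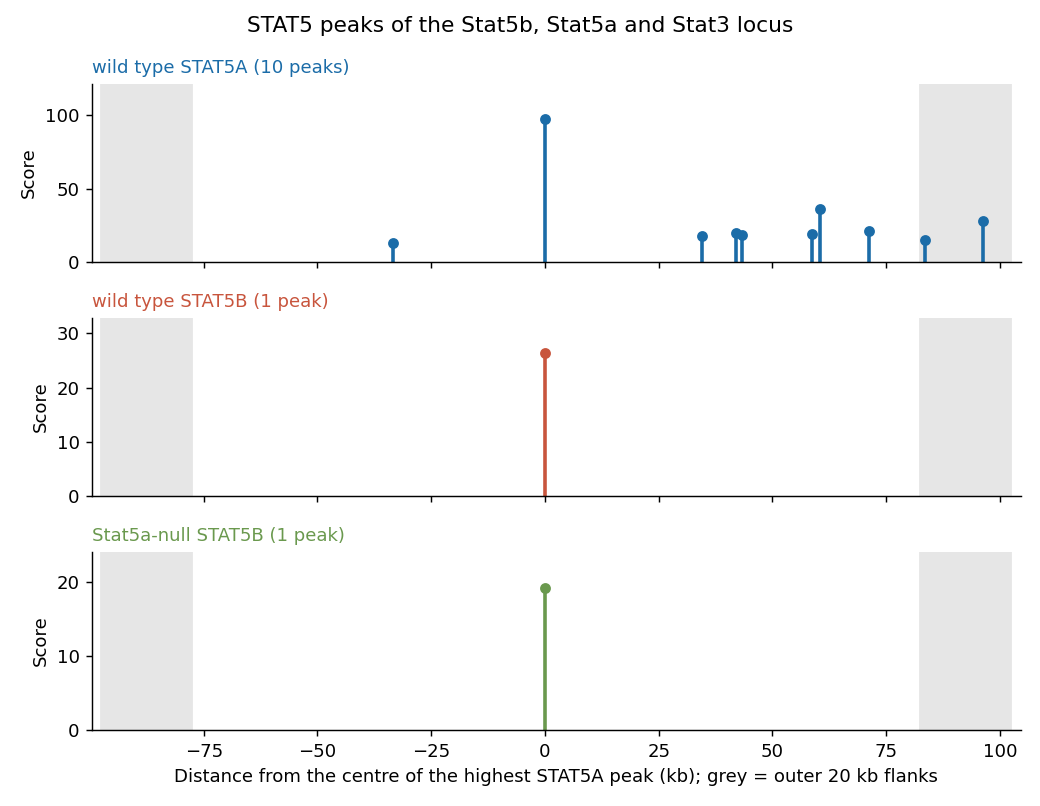
Score of each peak (vertical axis, the authors' value, a separate scale per list) against its distance in kb from the centre of the highest STAT5A peak, with 1 panel per list; grey marks the outer 20 kb at each end of the window. The 1 STAT5B peak of each genotype stands at the highest STAT5A peak (score 97.2), and 8 lower STAT5A peaks follow it towards the Stat3 end while 1 precedes it.

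The other 9 STAT5A peaks were lower and had no STAT5B peak in either genotype. The next highest, from 100777710 to 100777985, had a score of 35.9, so the shared site was 2.71 times as high as the runner-up. A peak from 100813590 to 100813865 had a score of 28.2. These were the last members above the list median of 27.1, and the remaining 7 were below it. Scores of 21.3, 19.9, 18.9, 18.4 and 17.9 belonged to the peaks that start at 100788646, 100759283, 100775901, 100760671 and 100751803. The lowest were 14.8 at 100800886 and 13.2 at 100683832, close to the lowest score of the whole list, 11. Over the 10 members the median score was 19.4, and the median member stood above 30.7% of the STAT5A list. The locus therefore held 1 high site among mostly weak ones.

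**Figure D2:**
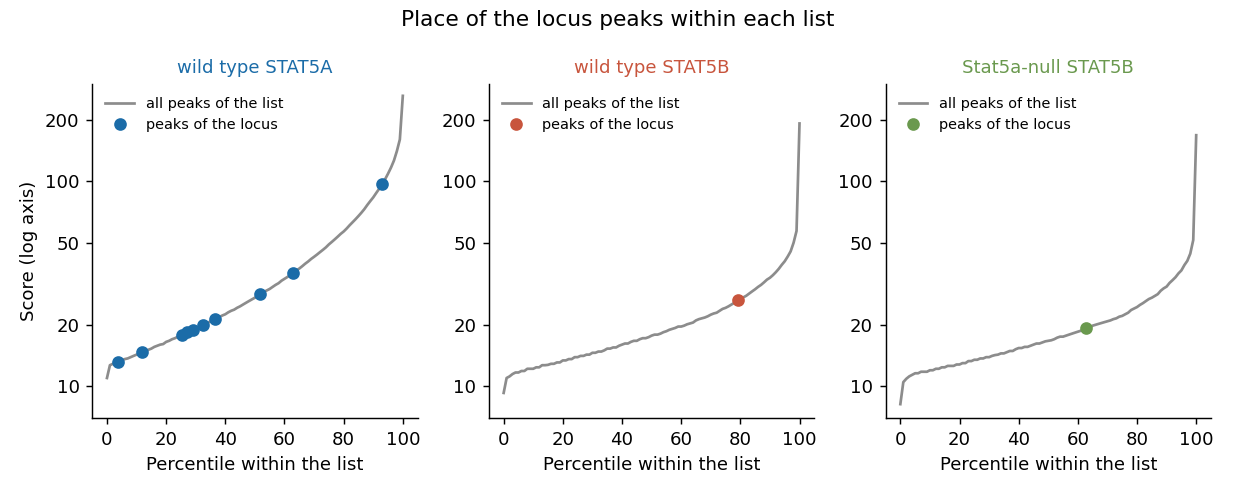
Score (log axis) of all peaks of a list against their percentile within it (grey line), with the peaks of the locus as points, for each of the 3 lists. Of the 10 STAT5A points 7 lie below the list median of 27.1, and the highest stands above 93.0% of the list.

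The STAT5A peaks lay unevenly on either side of the shared site. Over the 97.3 kb before it, the Stat5b end of the window, 1 STAT5A peak was called, or 10.3 per Mb. Over the 102 kb after it, towards Stat3, there were 8, or 78.1 per Mb, with scores from 14.8 to 35.9. No STAT5A peak was called in the first 20 kb of the window, and 2 were called in the last 20 kb. One of these, from 100800886 to 100801161, starts within 1 kb of the place where the rule puts the outer end of Stat3. Because that end is known only approximately, the peak was not assigned to the gene or to its flank.

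The shared site and the weakest member, at 100683832, each had no other STAT5A peak within 25 kb, and the other 8 members lay closer together. From the shared site the nearest STAT5A peak, which was that weakest member, was 33.2 kb away on the Stat5b side, and the next on the Stat3 side was 34.2 kb away. Of all STAT5A peaks 78.4% had a nearer neighbour, and of those in the highest-scoring decile 87.3% had one, with median distances of 9.0 kb and 6.30 kb. Neighbours at 100759283 and 100760671 were 1.11 kb apart, and those at 100775901 and 100777710 were 1.53 kb apart. With peaks joined across gaps of at most 12.5 kb, a run of 6 STAT5A peaks reached from 100775901 to 100824368 (48.5 kb), the last of its peaks lying past the window. It was 1 of 434 runs of 5 or more peaks in the STAT5A list. Gaps of 12.0 kb and 12.4 kb inside this run were just under the limit, so its length depends on that choice. A run of 3 reached from 100751803 to 100760946. Joined across 25 kb these became 1 run of 9 peaks over 72.6 kb, and across 5 kb no run had more than 2. The gaps of 25 kb and 5 kb were added after the data were seen.

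Runs of weak STAT5A peaks without STAT5B were not particular to the locus. The run of 6 held no STAT5B peak of either genotype, and its highest score was 35.9. Among the other 433 runs, 79 (18.2%, exact Clopper-Pearson 95% interval 14.7% to 22.2%) had no wild type STAT5B peak. Among the 32 of these runs whose highest score was also at most 35.9, a limit chosen after the locus was seen, all 32 had none (89.1% to 100%). At gaps of 25 kb, a setting added after the data were seen, the number was 60 of 62. The limit of 35.9 admits only peaks of decile 4 by score, of which 14.9% had a wild type STAT5B peak, and of lower deciles. It therefore left few partners to find, and the counts add little beyond that. The intervals cover counting error only and treat peaks or runs as independent.

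The first comparison asked where STAT5A and STAT5B were found together in wild type tissue. Of the 10 STAT5A peaks of the locus 1 overlapped a wild type STAT5B peak by at least 1 bp, or 10.0% (0.253% to 44.5%). The share over the STAT5A list was 26.3% (25.7% to 26.8%), inside the wide interval that 10 peaks give, so no difference between the locus and the list was detectable. The 1 wild type STAT5B peak of the locus had a STAT5A peak, as did 98.7% of the STAT5B list. Cross-reaction of the antibodies between the STAT5 proteins was not tested.

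STAT5A peaks of like score in the rest of the genome were split between those with and without STAT5B much as the members were. Of the 200 STAT5A peaks nearest in rank to the shared site (scores 95.3 to 98.9), 199 had a wild type STAT5B peak. For the member at 35.9 the number was 18 of 200, or 9.0%, and for the member at 28.2 it was 4 of 200. For the member at 21.3 it was 2 of 200, and for the remaining 6 it was 0 of 200. Adding the shares of the deciles into which the members fall gives 1.18 partners for the 10 peaks, where 1 was found, and 0.183 for the 9 lower ones, where none was. Whether STAT5B is absent from the 9 weak sites cannot be told from the lists, since STAT5B peaks were seldom called at sites of such low STAT5A score anywhere.

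**Figure D3:**
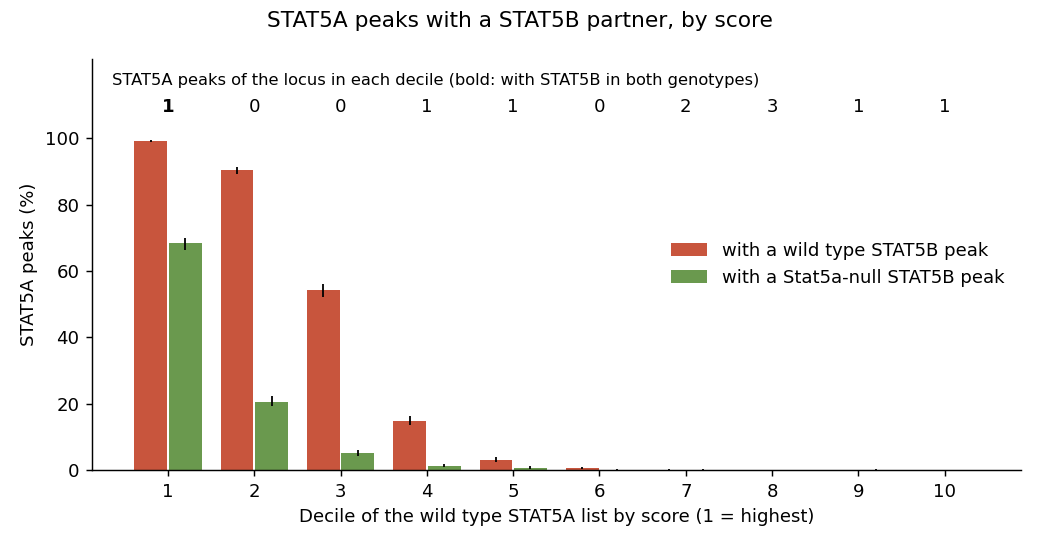
Percent of wild type STAT5A peaks that overlap a STAT5B peak of wild type or of Stat5a-null tissue (bars, with exact 95% intervals), by decile of STAT5A score from the highest (1) to the lowest (10); the numbers above the bars count the STAT5A peaks of the locus. The member in decile 1, where 99.2% and 68.3% had a partner, is the shared site, and 7 of the other 9 lie in deciles 7 to 10, where partners were nearly absent.

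The second comparison asked which STAT5B sites of the locus were found without STAT5A. The wild type STAT5B peak was found in Stat5a-null tissue too, so STAT5B was called at this site in mice without Stat5a. Of the wild type STAT5B list 34.8% had a Stat5a-null peak. Of the 200 wild type STAT5B peaks nearest in rank (scores 25.6 to 27.0) 143 did, or 71.5%, and of the 1425 wild type STAT5B peaks that scored higher 81.6% (79.5% to 83.6%) did. The Stat5a-null peak of the locus overlapped a wild type STAT5B peak, as did 94.1% of its list. It was the same site and adds no further support. With 1 site, no statement on how the locus as a whole responded to loss of Stat5a can be made.

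The third comparison set STAT5B of Stat5a-null tissue against STAT5A of wild type tissue. Of the 10 STAT5A peaks 1 had a Stat5a-null STAT5B peak, or 10.0% (0.253% to 44.5%), beside 9.67% of the list. Of the 200 STAT5A peaks nearest in rank to the shared site 119 had one, or 59.5%, and of the 1831 that scored higher 77.0% (75% to 78.9%) had one. The 1 Stat5a-null peak overlapped a STAT5A peak, as did 98.4% of the Stat5a-null list.

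STAT5A peaks were dense at the locus. The 10 peaks make 50 per Mb, which was 3.58 times the density of chromosome 11 (14 per Mb) and 5.03 times that of chromosomes 1 to 19 and X (9.93 per Mb). Of 12883 windows of 200 kb laid end to end over those chromosomes 371, or 2.88%, held at least 10 STAT5A peaks, and the median window held 1. At least 1 wild type STAT5B peak was found in 28.1% of windows and at least 1 Stat5a-null STAT5B peak in 13.8%. Most of the 10 peaks were weak. With the higher-scoring 50% of each list the locus held 3 STAT5A peaks, and 14.3% of windows held at least as many. With that cut 17.3% of windows held a wild type STAT5B peak and 7.87% a Stat5a-null one.

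Windows with a like number of STAT5A peaks usually held more wild type STAT5B peaks than the locus, but not more Stat5a-null STAT5B peaks. The 671 windows with 8 to 12 STAT5A peaks had a median of 3 wild type STAT5B peaks (quartiles 2 and 4), and 151 of them (22.5%, 19.4% to 25.9%) had at most 1. For Stat5a-null STAT5B the median was 1 peak, and 441 windows (65.7%, 62.0% to 69.3%) had at most 1. They also had more high STAT5A peaks, with a median of 3 in the 3 highest-scoring deciles, where the locus had 1. In the 83 of these windows with exactly 1 such peak, a choice made after the locus was seen, the median was 1 wild type STAT5B peak and 69 (83.1%, 73.3% to 90.5%) had at most 1. A Stat5a-null STAT5B peak was found in 22 of these 83 windows, and the locus has one.

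**Figure D4:**
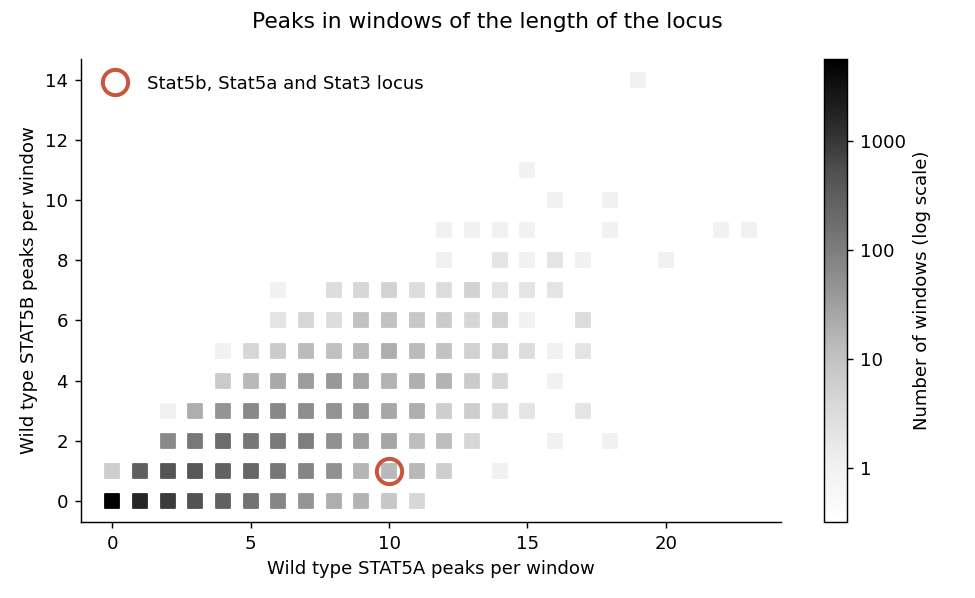
Number of wild type STAT5B peaks (vertical axis) against number of wild type STAT5A peaks (horizontal axis) in 12883 windows of 200 kb, with darker squares for more windows (log scale) and the locus as a red circle. At 10 STAT5A peaks and 1 STAT5B peak the locus lies to the right of most windows and low for windows with so many STAT5A peaks.

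The STAT5A run of chromosome 11 with the most peaks had a higher median score and more STAT5B peaks than the locus. It reached from 117819490 to 117877051 (57.6 kb) with 16 STAT5A peaks at a median score of 60.9, and 12 of them were above the list median, against 3 of 10 at the locus. Wild type STAT5B peaks were found at 9 of the 16 and Stat5a-null STAT5B peaks at 2. The decile shares add up to 9.43 wild type STAT5B partners for its 16 peaks, where 9 were found, and to 1.18 for the 10 of the locus, where 1 was found. The run was chosen for its number of peaks, and no test was made. It is a run of neighbouring peaks, while the locus is a window that also holds peaks outside any run, so the units differ.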

How the data were processed

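Peak lists of 3 ChIP-seq libraries were used. CASAVA, BWA and HOMER were run on mm9, per the submitters' processing notes. For versions, control libraries, thresholds and the handling of repeated reads, "not given in the sources used here" applies. The deposited files hold chromosome, start, end and 1 value per peak, a signal by the authors of unstated scale (the score), used only within a list. Peaks had 1 width per list: 276 bp for STAT5A, and for STAT5B 252 bp in wild type and 258 bp in Stat5a-null tissue. Total reads are unknown, so precision is given over peaks alone, as exact Clopper-Pearson 95% intervals. Starts were read as 0-based and are printed 1-based. No peak passed an mm9 chromosome end (GenomeInfoDb 1.38.1).

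An overlap of 1 bp or more made peaks shared, and sites are peaks merged on overlap. Windows of 200 kb were laid from 3 Mb on each chromosome, and peaks were counted in them by their centre. Python 3.11.15, numpy 2.4.6, pandas 2.3.3, scipy 1.17.1, matplotlib 3.10.9 and biopython 1.88 were used. The overlap count was run on simulated lists (500 of 500 planted shared peaks found). In these the planted peaks always overlapped and the others could not, so this checks only that the code runs correctly. On the real lists bedtools 2.31.1 gave the same counts for all 6 ordered pairs. Alternatives changed the flank, the membership and overlap rules, the list length, the tiling and the score classes. The members and lists were chosen with earlier results of these data known. By rule, every peak of the window is named, with the 3 member genes and their neighbours; the planned JAK-STAT pathway genes could not be placed on mm9 and were left out.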

Additional observations from a re-analysis of the deposited data

How the results depend on the processing

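Across 102 alternatives of 21 values, 86 stayed within the exact interval or within 1.5 times the count, and 16 moved. These limits were wide, so the tally is no measure of robustness. The overlap shares of the STAT5B lists rested on 1 peak each, with an interval of 2.5% to 100%. For the 10 STAT5A peaks the interval was 0.253% to 44.5%, and a shift from 10.0% to 33.33% counted as unchanged. The shared site was found in all 3 lists under each of the 8 alternatives run for it. That outcome followed from its place near the middle of the window, the 231 bp common to its peaks and its ranks in the lists. With the higher-scoring 50% of each list the locus held 3 STAT5A peaks, 2 of them without STAT5B, and windows with at least as many peaks made up 14.32% for STAT5A, 17.31% for wild type STAT5B and 7.871% for STAT5B in Stat5a-null tissue. With lists cut to the 2578 highest peaks 1 STAT5A peak was left, the shared site, so 0 were without STAT5B and 100% had a partner in each STAT5B list. On chromosome 11 alone the shares of windows were 3.872%, 37.04% and 19.19%. Flanks of 10 kb and of 50 kb both put the median STAT5A percentile at 29.09, against 30.73. A percentile is neither a share nor a count, and this small shift was counted as moved. Quartiles in place of deciles gave 0.408 partners in the Stat5a-null list for the 10 STAT5A peaks, against 0.710. Gaps of 5 kb left runs of at most 2 peaks. The gaps of 5 kb and of 25 kb were added after the data were seen. By construction the alternatives that moved a value took fewer peaks or windows, moved 1 peak across the bounds, used wider score classes, or joined peaks across shorter gaps. Gene locations, pathway genes and the motif in peaks were planned and not run, for want of mm9 annotation and sequence. No paired analysis was possible because the labels give no replicate numbers and each group has 1 library. Total reads are unknown, so how far sequencing depth limited the calling of weak sites in each list cannot be judged.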

Other observations

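The sites called in all 3 lists that lie closest to the locus were outside its bounds. Towards lower positions the nearest was 281.7 kb from the shared site, on chromosome 11 from 100435583 to 100435859, with scores of 53.1 (STAT5A), 13.6 (STAT5B, wild type) and 11.8 (STAT5B, Stat5a-null). On the Stat3 side the next was 138.7 kb away, from 100856043 to 100856336, which is 36.0 kb past the window. Its scores were 86.6, 18.1 and 15.8 in the same order. A further one lay from 100914259 to 100914553, 94.3 kb past the window, with scores of 92.7, 25.1 and 13.7. By STAT5A rank these 2 sites (2424 and 2063) were not far below the shared site of the locus (1832). By wild type STAT5B rank they stood at 3256 and 1592 of 6976 peaks, and the shared site at 1426. By Stat5a-null STAT5B rank the 2 sites stood at 1422 and 1844 of 2578 peaks, and the shared site at 941. Over all chromosomes the median distance between neighbouring sites of this class was 341 kb, and 37.1% of such distances were shorter than the 138.7 kb seen here. No gene was assigned to these sites.

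The 100 kb before the window held 2 STAT5A peaks (scores 12.7 and 28.3) and no STAT5B peak. The 100 kb after it held 6 STAT5A peaks (13.6 to 92.7) and 2 STAT5B peaks in each genotype. The nearest STAT5A peaks outside the window were 36.9 kb before it, at a score of 28.3, and 4.09 kb after it, at 13.6. The outermost peaks inside were 63.8 kb and 6.13 kb from the bounds, at scores of 13.2 and 28.2.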
